A study of Rattus norvegicus with 6 samples.

Results

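The genes described here are the rat TRIM (tripartite motif) genes, taken as every row of the gene table whose symbol is Trim followed by a number and whose gene type is protein_coding. There were 58 such genes among the 40154 genes of the table. They were measured by polyA-selected mRNA sequencing in atrial fibroblasts of Sprague-Dawley rats 1 to 3 days old, which had been separated from myocytes by their faster attachment during 1.5 h of preplating and then cultured in medium with fetal bovine serum. Cells received either si-NC, the negative control siRNA, or si-GPD1L, a siRNA against Gpd1l, which encodes glycerol-3-phosphate dehydrogenase 1-like protein, and were collected 24 h later, with 3 libraries in each group. All 6 libraries carry the treatment label "Atrial differentiation", which the labels do not explain. The si-GPD1L libraries are named 1, 2 and 3. These digits were taken to number replicates, although different siRNAs could be meant, which no source settles. No source says that libraries came from separate cultures or animals either, so p-values measure only the spread between these libraries, which may be technical.

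Most TRIM proteins, but not all, carry a RING domain, B-boxes and a coiled coil at the amino terminus. Most of the family are E3 ubiquitin ligases, the enzymes that choose which protein receives ubiquitin from an E2 conjugating enzyme. The carboxy terminus differs between classes and usually binds the target. The class with a PRY-SPRY domain includes ligases that act in antiviral defence and are known as interferon-stimulated genes, the MuRF class works at the sarcomere of striated muscle, and the class with a PHD finger and a bromodomain works in the nucleus. The comparison of si-GPD1L with si-NC asks which of these genes an atrial fibroblast culture transcribes and which of them differ when Gpd1l is targeted.

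Library totals ran from 16892255 to 20149732 counts, and no pair of libraries in a group agreed within sampling noise. The library si-NC 1 stood apart: chi-square values divided by their degrees of freedom were 21.2 and 29.8 against the other si-NC libraries, beside 8.96 between those and 4.11 to 6.18 among the si-GPD1L libraries. Gpd1l itself was counted 265, 314 and 321 times under si-NC, against 202, 229 and 303 times under si-GPD1L. Its log2 fold change was -0.31 with an SE of 0.147 (edgeR adjusted p = 0.234), the groups overlapped, and an exact two-sided permutation test of its normalized counts gave p = 0.2, where 3 against 3 cannot go below 0.1. With 1 library left out its log2 fold change ran from -0.21 (without si-GPD1L library 2, adjusted p = 0.579) to -0.50 (without si-GPD1L library 3, adjusted p = 0.0733), and the smallest adjusted p was 0.0604 (without si-NC library 1). The targeted transcript thus did not pass the test, and directions below are those of the libraries labelled si-GPD1L against those labelled si-NC. Fibroblast markers were abundant, with a sum of 36285 to 47367 TPM (counts per gene length, scaled to a common total of 1000000) in si-NC. After si-GPD1L the sum was 44950 to 48275 TPM. Of the 12 markers 2, Dcn and Lum, were called lower, against 2.33% of all genes tested. The log2 fold change lay below 0 for 9 of the 12 and above 0 for 3. The 11 cardiomyocyte markers were all detected too, at 2661 to 2811 TPM in si-NC and 2429 to 2601 TPM in si-GPD1L, so the cultures also held cardiomyocyte RNA.

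Most of the family was transcribed in these cultures. In every library of at least 1 group, 38 of the 58 genes reached 1 TPM and 28 reached 5 TPM. Every si-NC library held 34 genes at 1 TPM or more and every si-GPD1L library held 38, the additional 4 being Trim6, Trim30, Trim46 and Trim69. The filter on low counts left 43 genes for testing, of which 20 had a mean level of at least 10 TPM, 17 lay between 1 and 10 TPM and 6 lay under 1 TPM. Their median level was 8.89 TPM, against 14.7 TPM over all 14852 genes tested.

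**Figure D1:**
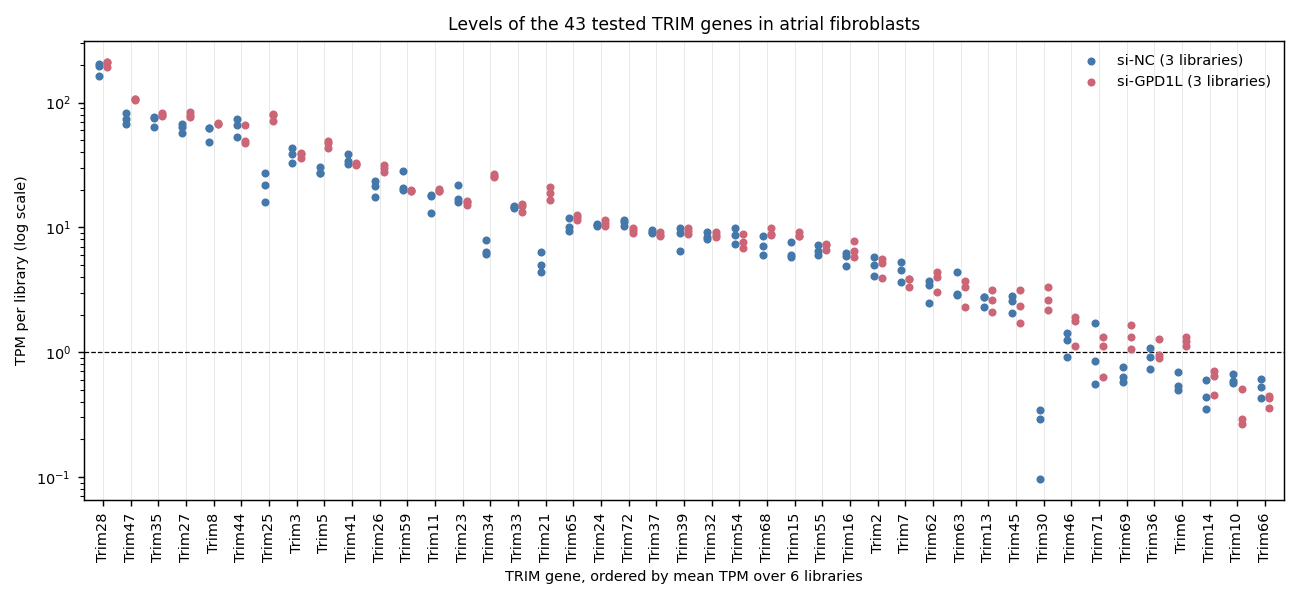
Level of each of the 43 tested TRIM genes in every library, in TPM on a log scale, ordered by the mean over the 6 libraries, with si-NC in blue, si-GPD1L in red and a dashed line at 1 TPM. Trim28 lies above all others at a mean of 197.3 TPM, and the groups part most clearly at Trim25, Trim34, Trim21 and Trim30.

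Over all 6 libraries, the 5 genes with the highest mean held 51.5% of the summed TPM of the family. By group the order differed, since Trim44 was 4th in si-NC at 64.2 TPM and 7th in si-GPD1L at 54.3 TPM, and Trim25 was 11th in si-NC and 5th in si-GPD1L. Trim28, the corepressor that KRAB zinc finger proteins recruit to silence chromatin, stood at 165, 204 and 195 TPM under si-NC and at 211, 213 and 195 TPM under si-GPD1L, and these ranges overlapped. Trim47, a PRY-SPRY ligase, followed with 67.4, 82.8 and 74.5 TPM in si-NC and 107.7, 106.8 and 105.6 TPM in si-GPD1L, every si-GPD1L library being above every si-NC library. Trim35 had 63.4 to 77.0 TPM under si-NC and 78.4 to 82.9 TPM under si-GPD1L. Trim27, also known as Ret finger protein, had 57.0 to 66.9 and 77.2 to 83.7 TPM. Trim8 had 48.0 to 62.9 and 67.7 to 69.0 TPM. Trim28 was above all others in every library. Among the rest, the si-NC levels of Trim47 and Trim35 overlapped, as did those of Trim27 with Trim35 and with Trim8, and the 53.2 to 73.6 TPM of Trim44 overlapped all of these.

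The 15 genes not tested were at or near background. Trim31, Trim40, Trim42 and Trim60 had 0 counts in all 6 libraries, and a count of 0 allows up to 3 counts in a library. Including these, 10 genes had at most 3 counts in every library, the others being Trim30c, Trim38, Trim50, Trim52, Trim58 and Trim67. Trim9, Trim17, Trim29, Trim43a and Trim80 exceeded 3 counts in at least 1 library, with a highest value of 13. Trim9, a ligase best known from neurons, had 0 counts in each si-NC library and 3, 4 and 9 counts in the si-GPD1L libraries, too few to pass the filter. In the fit without the filter on low counts it was called higher (adjusted p = 0.0178), and no fold is given against a group at 0.

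Of the 43 tested genes, 8 were higher in si-GPD1L at an edgeR adjusted p under 0.05, which is 18.6% of them, and the background over all 14852 genes tested was 4.03% higher, 2.33% lower and 6.36% in either direction. Among protein_coding genes alone the background in either direction was 6.62%. Trim30 and Trim10 passed the filter on low counts only through the group in which they were higher, and of the other 41 genes 7 were called higher. Without si-NC library 1, which stands apart from its group, 9 were called higher and 1 lower, Trim44. No TRIM gene was called lower by the edgeR quasi-likelihood test, DESeq2 or edgeR's exact test, and 16 of the 43 had an unadjusted p under 0.05, 11 higher and 5 lower, against 22.4% of all genes tested in either direction. Of the 8 called genes 4 also had a log2 fold change over 1, Trim30, Trim34, Trim25 and Trim21. Among the 41 genes that passed the filter in both groups, thus without Trim30, 3 were past both thresholds. The background past both thresholds was 1.62% in either direction and 1.48% higher. The median log2 fold change of the tested TRIM genes was 0.076, beside -0.0049 for all genes tested, the SD of the median over the si-GPD1L libraries was 0.0628, and with 1 library left out the median ran from 0.029 (without si-NC library 1) to 0.102 (without si-NC library 2). In RNA from whole cultures, a change in the number of cells of a type and a change in RNA per cell cannot be told apart.

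**Figure D2:**
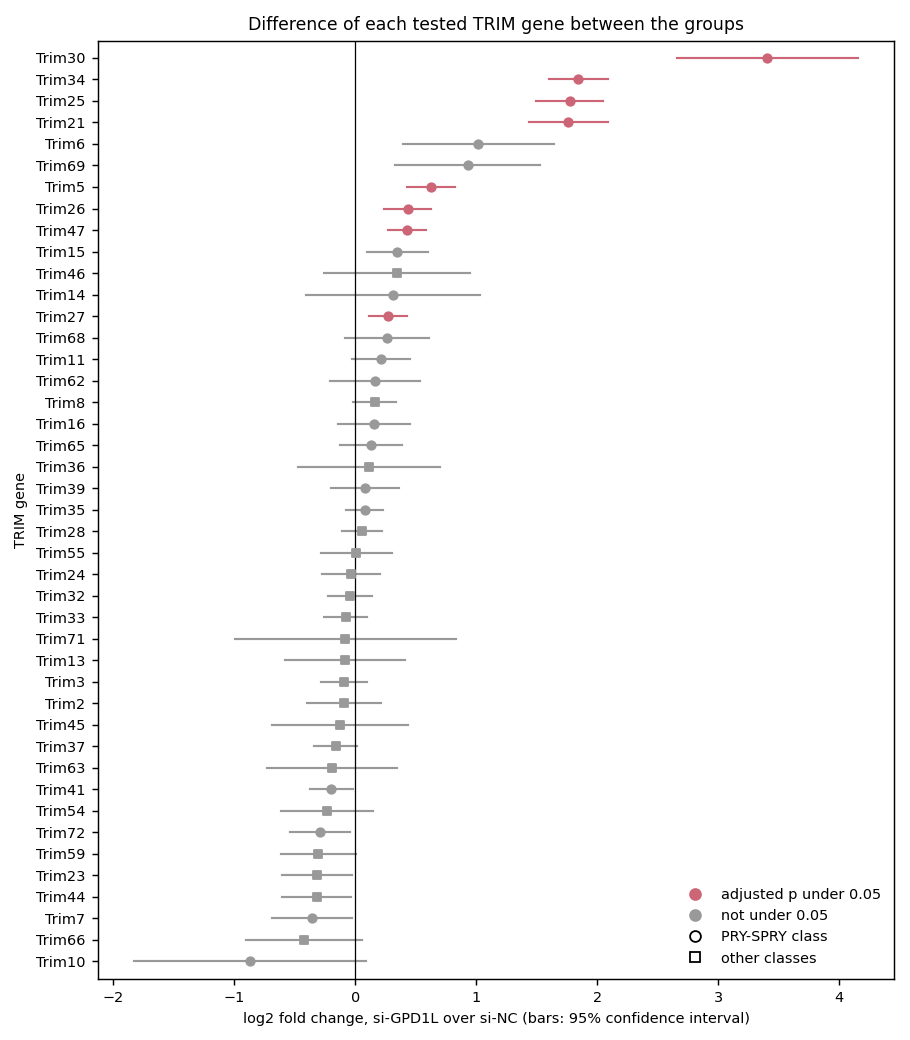
Log2 fold change of si-GPD1L over si-NC for each of the 43 tested TRIM genes, with 95% confidence intervals from 3 libraries per group, red for an adjusted p under 0.05, circles for the PRY-SPRY class and squares for other classes. All 8 red points lie to the right of 0 and all are circles, and 4 of them lie past 1.

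The 4 genes past both thresholds, Trim30 with the limit given at its values, are PRY-SPRY ligases. Trim25 encodes a ligase that modifies the RNA sensor RIG-I and works with the antiviral protein ZAP. Its si-NC libraries held 325, 388 and 514 counts and its si-GPD1L libraries 1196, 1614 and 1441 counts. The groups lay far apart. Normalized to the mean library size, Trim25 went from 411 ± 90.2 to 1403 ± 87.0 counts (SD, n = 3 each), a log2 fold change of 1.77 with an SE of 0.127, or 3.41-fold (adjusted p = 1.21e-06). In TPM it rose from 21.6 to 77.8 and moved from the 11th to the 5th place in the family. Trim25 lies on chromosome 10 (76343847 to 76362159, plus strand, rn6).

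Trim21 encodes the cytosolic antibody receptor that marks antibody-coated virus particles for degradation. Its counts were 219, 150 and 140 in si-NC and 465, 709 and 583 in si-GPD1L, again with no overlap. The normalized count was 171 ± 41.3 in si-NC and 578 ± 68.8 in si-GPD1L (SD, n = 3 each), a log2 fold change of 1.76 with an SE of 0.151 (adjusted p = 8.09e-06). Its level went from 5.22 to 18.9 TPM, from the 28th to the 15th place. The gene lies on chromosome 1 (167686148 to 167708735, minus strand, rn6).

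Trim34 is a neighbour of Trim5 and Trim6 and belongs to the same group of related ligases. It had 137, 148 and 121 counts in si-NC and 441, 554 and 487 counts in si-GPD1L. The spread within each group was small, and the normalized count rose from 136.7 ± 19.3 to 490.1 ± 11.9 (SD, n = 3 each). The log2 fold change was 1.84 with an SE of 0.114, or 3.59-fold (adjusted p = 2.36e-07), which is the smallest adjusted p of the family. Its level rose from 6.82 to 25.9 TPM, from the 24th to the 12th place.

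Trim30, a rodent gene of the same neighbourhood whose current RefSeq symbol is Trim30d, had 3, 8 and 10 counts in si-NC and 56, 102 and 73 counts in si-GPD1L. It passed the filter on low counts only through the si-GPD1L libraries, so a gene with its pattern had to differ, and its log2 fold change of 3.41 (SE 0.345, 95% interval from 2.65 to 4.16) is given as a description. In the fit without that filter it was called higher as well. The level was nevertheless low, at 0.244 TPM in si-NC and 2.72 TPM in si-GPD1L.

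**Figure D3:**
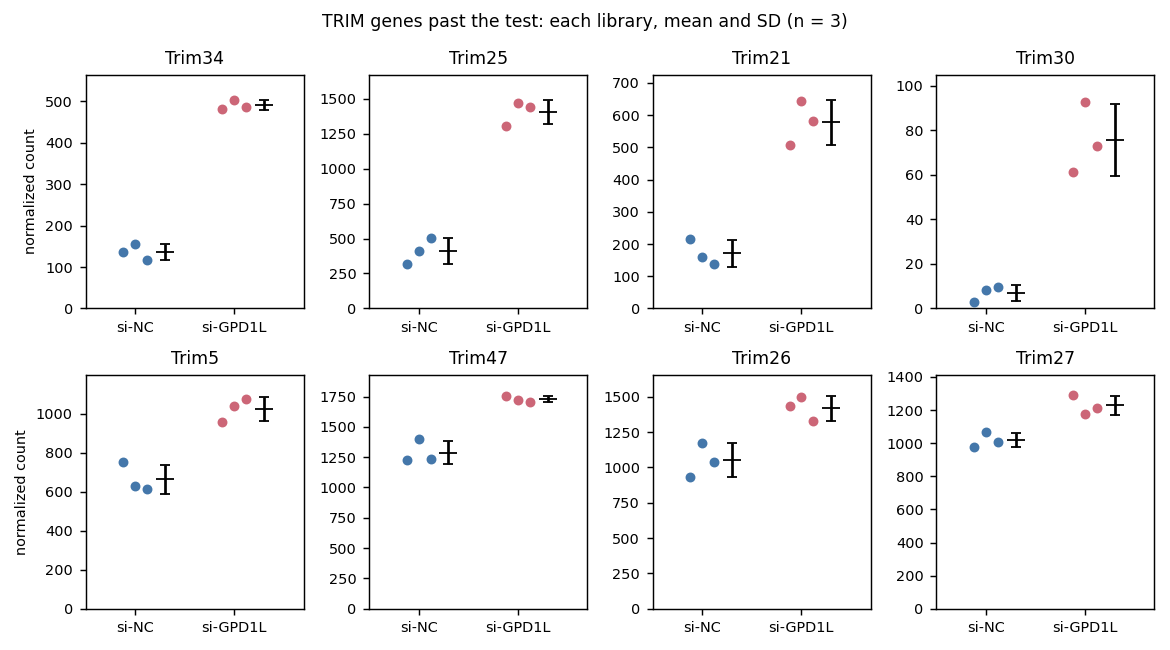
Normalized counts of the 8 TRIM genes with an adjusted p under 0.05 in each of the 3 si-NC (blue) and 3 si-GPD1L (red) libraries, with the mean and SD of each group as a line and bars. Each panel starts at 0 and has its own scale, and in every panel the red points lie above the blue ones.

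The other 4 genes called higher differed by less than 2-fold. Trim5, whose primate protein binds and blocks retroviral capsids, had normalized counts of 749.4, 629.6 and 612.9 in si-NC and 957.2, 1038.8 and 1076.0 in si-GPD1L. These groups did not overlap, and the log2 fold change was 0.63 with an SE of 0.091 (adjusted p = 0.00118). Trim47 had normalized counts of 1223.9, 1395.6 and 1236.5 against 1757.5, 1723.1 and 1708.8. Its log2 fold change was 0.43 with an SE of 0.0731 (adjusted p = 0.00381). The gene lies wholly within the lncRNA LOC102552044 on the opposite strand, which had a mean of 20.7 counts.

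Trim26, which lies among the class I histocompatibility genes, had normalized counts of 935.2, 1176.6 and 1041.3 in si-NC and 1431.5, 1496.8 and 1326.5 in si-GPD1L. The log2 fold change was again 0.43, with an SE of 0.0895 (adjusted p = 0.0133), and without si-GPD1L library 1 or 2 the adjusted p was 0.0748 or 0.103. Part of Trim26 (1952 bases) overlaps Trim15 on the opposite strand and a further 3547 bases overlap another protein_coding gene on its own strand, and no source says whether counting used strand, so reads of these genes may be mixed. Trim27 had normalized counts of 978.7, 1065.5 and 1009.1 against 1291.9, 1177.8 and 1213.7. Its log2 fold change was 0.27 with an SE of 0.0723 (adjusted p = 0.0460), and this call was lost in 7 of 13 alternatives, where the adjusted p reached 0.216. The calls of Trim21, Trim25, Trim34, Trim5 and Trim47 held in all 13 alternatives.

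In sum, as a description of genes chosen by their calls, these 8 held 201, 236 and 225 TPM in si-NC and 380, 396 and 389 TPM in si-GPD1L. All other TRIM genes together held 585, 682 and 679 TPM in si-NC and 673, 679 and 681 TPM in si-GPD1L, where the groups overlapped. Of the counts of a library, the 58 genes took 0.1128% to 0.1196% under si-NC and 0.1310% to 0.1352% under si-GPD1L.

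Among the 35 tested genes that were not called, 16 had a log2 fold change above 0 and 19 below 0, with a median of -0.044 and a range from -0.87 for Trim10 to 1.02 for Trim6. Trim10 had 11, 10 and 12 counts in si-NC against 8, 5 and 5 in si-GPD1L and passed the filter only through si-NC, and without it the lowest value was -0.43, that of Trim66. The 95% interval of the log2 fold change lay within ±0.5, that is 1.41-fold, for 15 of them and within ±1 for 31 of them. Trim6, which makes unanchored ubiquitin chains in interferon signalling, had 14, 17 and 14 counts in si-NC and 26, 36 and 31 in si-GPD1L, with an adjusted p of 0.0557. Trim69 had 29, 19 and 22 counts against 51, 39 and 44, a log2 fold change of 0.93 with an SE of 0.275 (adjusted p = 0.0657). Neither group pair overlapped, and both genes passed in 3 of the alternatives. Trim15 had normalized counts of 253.1, 298.4 and 223.5 against 320.5, 319.0 and 344.3 (adjusted p = 0.09999), and it shares the stretch with Trim26 named above. Over all 43 tested TRIM genes, the 2 groups did not overlap for 21, with 13 higher and 8 lower, against 29.0% of all genes tested.

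The most abundant member, Trim28, had a log2 fold change of 0.055 with a 95% interval from -0.11 to 0.22 (adjusted p = 0.727). For Trim35 the log2 fold change was 0.076 with an SE of 0.0697 (adjusted p = 0.563). Trim8 had 0.16 with an SE of 0.0813 (adjusted p = 0.273), although its groups did not overlap.

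By domain class, all 8 calls lay in the PRY-SPRY class, where 23 of 30 genes were tested, 8 were called higher and 15 were not called. Of the 23, Trim30 and Trim10 passed the filter on low counts through 1 group only. The median log2 fold change of the class was 0.27, and 19 of the 23 genes had a value above 0. Of the 20 tested genes in other classes none was called by the edgeR quasi-likelihood test, DESeq2 or the exact test, against 6.36% of all genes. An unadjusted p under 0.05 was found for 2 of the 20, both lower, a smaller share than the 22.4% of all genes. They were Trim23 and Trim44, named here after their values were seen. Without the filter on low counts, Trim23, Trim44 and Trim59 of these other classes were called lower and Trim9 higher. The 4 genes with NHL repeats (Trim2, Trim3, Trim32 and Trim71) had log2 fold changes from -0.095 to -0.044. The 4 genes with a PHD finger and bromodomain, Trim28 among them, had a median of -0.057. The difference between classes was not tested.

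The MuRF genes are ligases of the sarcomere, and Trim63 (MuRF1) is known for its part in muscle atrophy. Trim54 (MuRF3) had 102, 75 and 108 counts in si-NC and 66, 100 and 80 in si-GPD1L. Trim55 (MuRF2) had 150, 145 and 128 against 135, 147 and 149. Trim63 had 44, 39 and 62 against 29, 55 and 45. All 3 pairs of groups overlapped, and the log2 fold changes were -0.23, 0.0094 and -0.19 with adjusted p of 0.465, 0.980 and 0.701. The sign for Trim55 and for Trim63 turned under some alternatives. Trim72 (MG53), which seals membrane lesions in striated muscle, had 199, 188 and 208 counts in si-NC and 152, 170 and 169 in si-GPD1L, with a log2 fold change of -0.29, an SE of 0.113 and an adjusted p of 0.146. All 4 muscle genes were thus read in cultures whose cardiomyocyte markers summed to the levels given above. Of the 11 markers 1, Pln, was called lower, against 2.33% of all genes tested. Their log2 fold changes lay below 0 for 8 and above 0 for 3, with a median of -0.22. The part of the cardiomyocyte RNA in the values of the 4 muscle genes was not tested.

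Endothelial markers were higher in si-GPD1L, at 70.9 to 76.2 TPM in sum against 42.2 to 55.1 TPM in si-NC, with 5 of 11 tested called higher. Macrophage markers summed to 269 to 305 TPM in si-NC and 246 to 351 TPM in si-GPD1L, with 0 of 15 called by edgeR's quasi-likelihood test and DESeq2, 1 by the exact test and 1 at an unadjusted p under 0.05. Smooth muscle and pericyte markers summed to 463 to 508 and 502 to 573 TPM, with 2 of 8 called higher and 1 lower. DESeq2 and the exact test each called 2 of these higher and 3 lower. Over all genes tested, 4.03% were called higher and 2.33% lower. No marker of any of these lists was at 0 in every library. Their part in the values of the 8 called TRIM genes was not tested.

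The TRIM genes lie on 15 chromosomes, and 18 of them fall into 6 clusters whose neighbours are at most 200000 bases apart. On chromosome 1, between 169410084 and 169540238 (rn6), Trim6, Trim34, Trim5, Trim30c and Trim30 follow each other. Of the 4 tested there, 3 were called higher, Trim34, Trim5 and Trim30, and Trim6 was not called. Trim30 passed the filter on low counts only through si-GPD1L, so its call adds no support. The background was 4.03% called higher, and the cluster was not tested. Trim21 lies nearby with Trim68, and Trim47 with Trim65 on chromosome 10. On chromosome 20, between 2146245 and 2224481, Trim31, Trim40, Trim10, Trim15 and Trim26 form another cluster, with 3 tested and 1 called. Whether reads were shared between related neighbours was not tested. Overlap with another annotated gene was found for 16 of the 58 genes.

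Promoter windows from RefSeq (GRCr8, 250 bases before to 50 bases after the gene's start) were found for 48 of the 58 genes, among them all 8 called genes, Trim30 through its current symbol. They were searched on both strands for GAAA, any 2 bases and GAAA again, the core of the interferon-stimulated response element. It was present in 4 of the 48 windows (8.33%), against 3.92% of all 33469 windows of the table. Of the 8 called genes 3 held it, Trim21, Trim34 and Trim26, and none of the 27 windows of tested genes that were not called did. The fourth window was that of Trim40, which had 0 counts. Whether the motif and the calls go together was not tested. The windows of the called genes Trim21, Trim34 and Trim26 are printed 5′ to 3′ on the strand of each gene. The bases matched are in capitals. In each window 2 matches overlap in a run of 16 bases.
Trim21 (chr1:166399322-166399621, minus strand): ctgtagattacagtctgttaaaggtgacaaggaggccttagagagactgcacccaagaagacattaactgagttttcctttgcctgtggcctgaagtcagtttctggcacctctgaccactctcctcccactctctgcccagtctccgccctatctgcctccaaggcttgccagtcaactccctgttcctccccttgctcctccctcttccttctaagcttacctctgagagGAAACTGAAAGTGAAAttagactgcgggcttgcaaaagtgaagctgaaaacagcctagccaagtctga
Trim34 (chr1:168118793-168119092, plus strand): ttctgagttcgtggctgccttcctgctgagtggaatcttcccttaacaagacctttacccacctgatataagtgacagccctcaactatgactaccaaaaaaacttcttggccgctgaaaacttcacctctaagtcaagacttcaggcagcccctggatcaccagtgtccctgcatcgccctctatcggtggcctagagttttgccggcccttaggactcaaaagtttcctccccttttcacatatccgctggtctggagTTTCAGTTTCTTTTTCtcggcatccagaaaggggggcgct
Trim26 (chr20:1736262-1736561, minus strand): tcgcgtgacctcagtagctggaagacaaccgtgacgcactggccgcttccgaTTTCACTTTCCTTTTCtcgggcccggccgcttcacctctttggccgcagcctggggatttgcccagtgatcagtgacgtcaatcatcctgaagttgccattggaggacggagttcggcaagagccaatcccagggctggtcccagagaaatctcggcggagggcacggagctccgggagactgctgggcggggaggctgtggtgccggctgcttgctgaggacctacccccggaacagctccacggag

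In the Trim21 window the run covers bases 233 to 248, just before the start, in the Trim34 window bases 261 to 276, just after it, and in the Trim26 window bases 53 to 68. Trim21 holds the motif in the forward orientation, and Trim34 and Trim26 hold it reversed. The other 5 called genes, Trim25, Trim30, Trim5, Trim47 and Trim27, did not hold these letters in the window. The STAT motif TTCNNNGAA was present in 2 TRIM windows (4.17%), those of Trim23 and Trim31, against 8.87% of all windows, and in none of the called genes. A match is a stretch of letters and no evidence of binding.

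The transcript table, a second readout of the same libraries, lists 146 transcripts of the 58 genes. Of these 102, from 43 genes, were tested, and 12 transcripts of 7 genes were called, all higher, which is 11.8% against a background of 5.89% in either direction and 3.58% higher. All 3 tested transcripts of Trim21 were called, with log2 fold changes from 1.703 to 1.738, as were all 3 of Trim26, both of Trim5 and the only tested transcripts of Trim25, Trim30, Trim34 and Trim47. The Trim30 transcript had the same counts as the gene, 3, 8 and 10 in si-NC and 56, 102 and 73 in si-GPD1L. The limit given for Trim30 thus holds here, and its call adds no support. Trim27 missed the threshold here, with an adjusted p of 0.0586.

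Some relatives carry the TRIM fold under other symbols. Pml (Trim19), the scaffold of nuclear bodies, had 802, 895 and 969 counts in si-NC and 2589, 3560 and 2736 in si-GPD1L. It rose from 895 ± 88.6 to 2930 ± 269 normalized counts (SD, n = 3 each), a log2 fold change of 1.71 with an SE of 0.0923 (adjusted p = 5.45e-08). Mid1, the microtubule-bound ligase of Opitz syndrome, had a log2 fold change of 0.13 (adjusted p = 0.328), and Mid2, its paralog, had 0.017 (adjusted p = 0.949), a value whose sign turned under 4 alternatives. Mefv, which encodes pyrin, had 2, 1 and 1 counts against 6, 2 and 3 and was not tested.

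Of 24 genes for ubiquitin, ISG15 and their E1 and E2 enzymes, 3 were called higher and 1 lower, with a median log2 fold change of -0.11. Over all genes tested, 4.03% were called higher and 2.33% lower. Isg15, a ubiquitin-like modifier, had 13, 22 and 14 counts in si-NC and 926, 1402 and 947 in si-GPD1L. The log2 fold change was 6.02 with an SE of 0.192 (adjusted p = 2.82e-10). Uba7, its E1, had 47, 27 and 53 counts against 750, 1053 and 843, and Ube2l6, its E2, had 143, 143 and 168 counts against 412, 577 and 518. The log2 fold changes were 4.36 (SE 0.156, adjusted p = 8.23e-10) and 1.71 (SE 0.108, adjusted p = 3.26e-07), so the 3 genes called higher in this list encode ISG15 and enzymes that attach it. Ube2d1, a general E2 enzyme, had -0.45 (SE 0.118, adjusted p = 0.0416) and lost its call in 5 alternatives.

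Tested too were 21 genes for proteins on which TRIM ligases act or with which they work in nucleic acid sensing. Of these, 7 were called higher and none lower by the edgeR quasi-likelihood test, DESeq2 or the exact test. The background over all genes tested was 4.03% higher and 2.33% lower. At an unadjusted p under 0.05, 9 of the 21 were higher and 0 lower, against 22.4% of all genes tested in either direction. The median log2 fold change of this list was 0.11. Irf7, a transcription factor of interferon genes, had 60, 73 and 74 counts in si-NC and 3311, 5488 and 3656 in si-GPD1L. Ddx58 (RIG-I), the sensor that Trim25 modifies, had 292, 226 and 275 against 1913, 2638 and 2075. Ifih1 (MDA5) had 212, 204 and 216 against 1168, 1575 and 1334. In each of the 3 the groups lay far apart, with log2 fold changes of 5.87 (SE 0.159), 3.04 (SE 0.0954) and 2.67 (SE 0.0843). The adjusted p was 1.14e-10 for Irf7, 2.62e-10 for Ddx58 and 2.73e-10 for Ifih1.

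**Figure D4:**
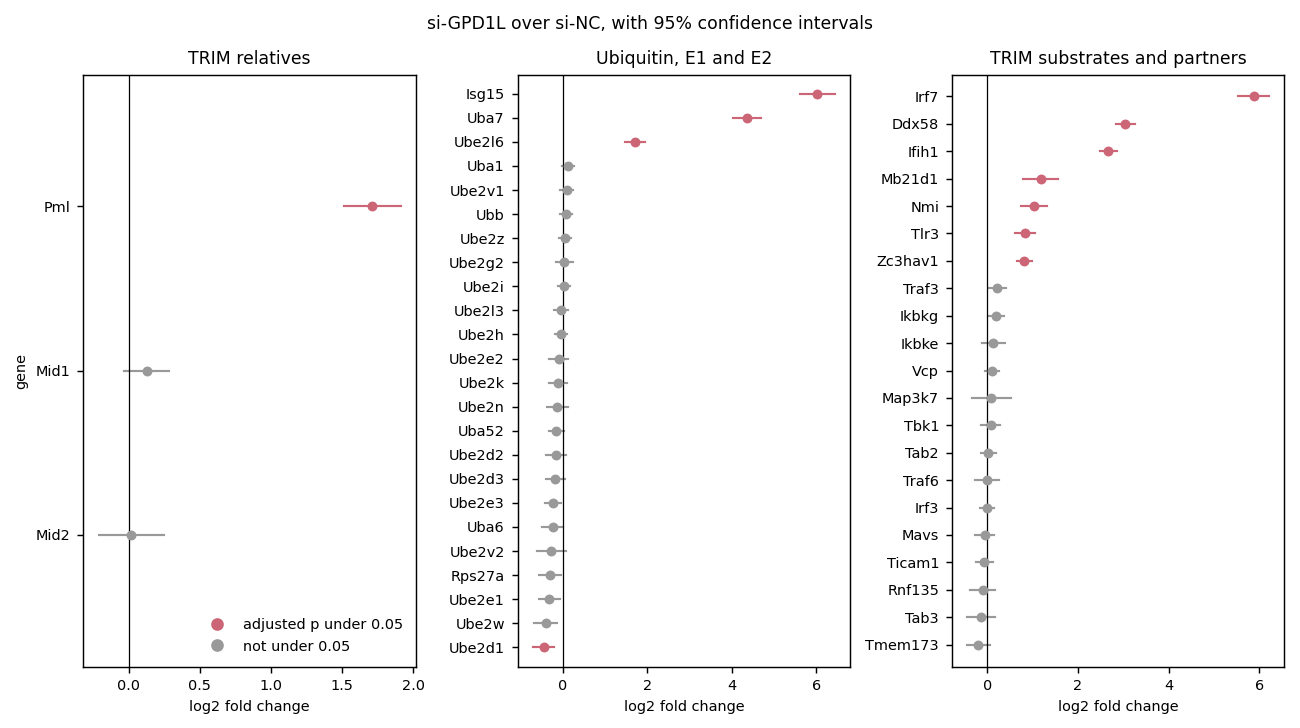
Log2 fold change of si-GPD1L over si-NC with 95% confidence intervals (3 libraries per group) for TRIM relatives, for ubiquitin with E1 and E2 genes, and for TRIM substrates and partners, each panel with its own scale and red for an adjusted p under 0.05. Isg15 and Irf7 lie farthest to the right at 6.02 and 5.87, and most genes of the second panel lie near 0.

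Of 12 tested genes known as partners of Trim28 in chromatin repression, none was called by the edgeR quasi-likelihood test, DESeq2 or the exact test. The background called in either direction was 6.36% of all genes tested. At an unadjusted p under 0.05, 3 of the 12 were lower, a share near the 22.4% of all genes in either direction. The smallest adjusted p belonged to Cbx3 (HP1 gamma), Sumo2 and Cbx1 (HP1 beta), with log2 fold changes of -0.25, -0.23 and -0.15 and adjusted p of 0.123, 0.169 and 0.193. The median of the list was 0.043.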

How the data were processed

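Total RNA was polyA-selected and sequenced by the authors. Per the labels and the submitters' processing notes, bcl2fastq, HISAT2 2.1.0, HTSeq 0.12.4 and build rn6 were used. The strand setting is not given in the sources used here. The deposited gene and transcript counts are whole numbers without normalization. The deposited TPM values equal counts over gene length scaled to 1000000, as checked, and were used only for levels. The authors' comparison tables (adjusted counts, fold changes, p-values) and their GO and KEGG tables were not used.

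Counts were compared with R 4.3.3 and edgeR 4.0.16 (filterByExpr, TMM, quasi-likelihood F test, Benjamini-Hochberg over all genes tested), tested on simulated data. A gene was called at an adjusted p under 0.05. Normalized counts are scaled to the mean library size. The SE is the log2 fold change over the square root of F, and intervals are 95%. Alternatives were DESeq2 1.42.0, the exact test, upper-quartile scaling, 2 count filters, a replicate block and each library left out. A count of 0 allows up to 3, and this floor covers counting error only. Common biological variation was 0.0894.

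Members and lists were chosen with earlier results of these data known, and 2 genes of the lists are not reported here. Named genes are every called member, the 5 highest levels, the 3 next by adjusted p, muscle genes, relatives, Gpd1l, and in each other list up to 3 by smallest adjusted p, or all called where 5 or fewer. Protein domains were taken from textbook classes.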

Additional observations from a re-analysis of the deposited data

How the results depend on the processing

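The 13 alternatives were run on the gene counts. For the counts of TRIM genes called, the transcript table was a further alternative, and for levels 5 TPM in place of 1 TPM. Of 121 values of the 10 comparison results, 107 kept their direction and their side of the threshold or stayed close in size. Trim21, Trim25, Trim34, Trim5 and Trim47 were called higher in every alternative. Among the 13, Trim30 was called higher in the 12 in which it was tested, since the filter of 10 counts in every library removes it. Trim30 passed the main filter on low counts only through si-GPD1L, so its calls under that filter add no support. The number of TRIM genes called higher was 7 under upper-quartile scaling, 10 by the exact test and 11 without the filter on low counts, where Trim6, Trim69 and Trim9 were added, and it ranged from 6 to 9 with a library left out.

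The number of all genes called was 945, but 1528 by the exact test and 1929 without the filter, and it ranged from 361 (without si-GPD1L replicate 2) to 1531 (without si-NC replicate 1) with a library left out. It was 366 without si-GPD1L replicate 1, 591 without si-GPD1L replicate 3, 550 without si-NC replicate 2 and 1451 without si-NC replicate 3. TRIM genes called lower numbered 3 without the filter (Trim23, Trim44 and Trim59) and 0 to 1 with a library left out, the 1 being Trim44 without si-NC replicate 1. Calls in the ubiquitin and E2 list numbered 7 without the filter and ranged from 3 (without si-NC replicate 2 or any 1 si-GPD1L library) to 7 (without si-NC replicate 3). The Trim28 partner list had 1 call without the filter and 0 to 1 with a library left out (1 without si-NC replicate 3). The cause was not tested.

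The log2 fold change turned sign for Trim55 (-0.015) and Mid2 (-0.0083) under upper-quartile scaling. With a library left out, Trim55 ranged from -0.078 to 0.065, Trim63 from -0.34 to 0.00088 and Mid2 from -0.073 to 0.095. None of these was called in any alternative.

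With the replicate number as a block, 921 genes and 7 TRIM genes were called, Trim27 being lost at an adjusted p of 0.0706, and Ube2d1 was lost at 0.0542. Deviations of libraries with the same number correlated at -0.0160, -0.0058 and 0.044, and those with different numbers at -0.044 to 0.047. No pairing by number was thus seen, although 3 libraries per group are too few to exclude it. With the block, no other named gene changed its call.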
